A study of Homo sapiens with 105 samples.

Results

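The transcripts of the mitochondrial genome were taken as all genes of the count table whose symbol starts with MT-. There were 37 such genes among the 63241 in the table, namely 13 protein-coding genes, 2 ribosomal RNA (rRNA) genes and 22 transfer RNA (tRNA) genes. All 37 lie on chromosome M, which has 16569 bases in GRCh38, and all 37 had enough counts to be tested. Symbols and positions were those of the GENCODE annotation of this build.

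The cells were Caco-2, a line from a human colon adenocarcinoma, kept in DMEM with fetal calf serum. They were incubated with bacterial extracellular vesicles (BEVs), transfected with RNA from BEVs by a lipid reagent, or given a control. BEVs came from L. casei DSM 20011 (LcMV, 1.5e+11 particles), E. faecalis DSM 20478 (EfMV, 7.5e+09 particles) and P. mirabilis DSM 4479 (PmOMV, 6.0e+09 particles). BEV-RNA of the same strains was transfected at 100 ng (LcRNA), 5 ng (EfRNA) and 2 ng (PmRNA). Controls were PBS for incubation and a non-targeting siRNA at the matching amounts for transfection (ANC100, ANC5 and ANC2). P. mirabilis LPS was given by both routes, in the medium as LPSinc and by transfection as LPStrans, at doses the labels give as 0.2 and 1 ng per µl, a unit in which the labels and the methods of the study differ. Cells were sampled at 10 and 24 h, and the PBS, ANC100, LcMV and LcRNA groups also at 48 h. The 28 groups held 3 or 4 libraries each, numbered as replicates 2 to 5. The labels do not say whether a number is a culture or a day, so the p-values measure the spread between libraries, part of which may be technical.

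The mitochondrial genome is a small circle of DNA that is transcribed from both strands into long RNAs. These are cut into mRNAs, rRNAs and tRNAs, in many places at the tRNAs that lie between the other genes. The mRNAs encode core subunits of respiratory complexes I, III and IV and of the ATP synthase, complex V, while the other subunits of these complexes, and every protein that copies, transcribes and processes the mitochondrial genome, come from nuclear genes. The rRNAs and tRNAs serve the ribosome inside the organelle. In the absorptive epithelium of the gut, mitochondria supply ATP for transport.

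In 5 places neighbouring genes of this genome overlap, and fragments there cannot be given to 1 gene. MT-ATP8 and MT-ATP6, both subunits of the ATP synthase, share 46 bases, and the complex I genes MT-ND4L and MT-ND4 share 7. MT-TI and MT-TQ, for the isoleucine and glutamine tRNAs, share 3 bases on opposite strands. MT-TC and MT-TY (cysteine and tyrosine tRNAs) share 1 base, as do MT-ATP6 and MT-CO3. The overlaps are shown in GRCh38 with 30 bases on each side and the shared bases in capitals, on the + strand except for MT-TC with MT-TY, which is on the - strand.
MT-ATP8/MT-ATP6, chrM:8497-8602: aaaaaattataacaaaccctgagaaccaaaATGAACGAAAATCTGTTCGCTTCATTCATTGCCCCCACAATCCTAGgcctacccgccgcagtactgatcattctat
MT-ND4L/MT-ND4, chrM:10730-10796: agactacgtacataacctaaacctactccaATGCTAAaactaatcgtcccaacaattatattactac
MT-TI/MT-TQ, chrM:4299-4361: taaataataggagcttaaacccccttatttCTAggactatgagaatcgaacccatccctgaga
MT-TC/MT-TY, chrM:5796-5856: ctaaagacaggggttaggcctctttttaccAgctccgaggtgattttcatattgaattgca
MT-ATP6/MT-CO3, chrM:9177-9237: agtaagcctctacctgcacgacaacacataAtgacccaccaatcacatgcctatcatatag

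The tRNA genes were 59 to 75 bases long, so all 22 were shorter than a read of 100 bases. The 7 shown here, each on its own strand, are those on which the tRNA results below turn. MT-TS1 (serine), MT-TC and MT-TY, on the - strand, had the highest levels. MT-TH (histidine), MT-TS2 (serine) and MT-TR (arginine), on the + strand, differed most between 10 and 24 h, and MT-TV (valine) lies between the rRNA genes.
MT-TS1, chrM:7446-7514: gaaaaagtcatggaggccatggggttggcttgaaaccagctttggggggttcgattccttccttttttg
MT-TC, chrM:5761-5826: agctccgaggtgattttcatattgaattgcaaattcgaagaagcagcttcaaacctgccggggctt
MT-TY, chrM:5826-5891: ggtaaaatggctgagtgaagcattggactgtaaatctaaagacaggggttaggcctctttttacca
MT-TH, chrM:12138-12206: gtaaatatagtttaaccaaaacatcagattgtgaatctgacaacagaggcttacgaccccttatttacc
MT-TS2, chrM:12207-12265: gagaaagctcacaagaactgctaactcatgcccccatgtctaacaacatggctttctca
MT-TR, chrM:10405-10469: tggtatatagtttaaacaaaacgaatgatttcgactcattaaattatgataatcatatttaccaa
MT-TV, chrM:1602-1670: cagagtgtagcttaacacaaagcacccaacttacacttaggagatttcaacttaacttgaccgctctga

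Total counts per library ran from 632659 to 8558755 (median of the 66 libraries used here 5563438). The libraries were run on 4 lanes of each of 2 flow cells. The 39 libraries from lanes 2, 3 and 4 of the flow cell here called 1 were set aside, a choice made with earlier results of these data known, and 66 libraries remained (20 groups of 2, 6 of 3 and 2 of 4). In the 66 libraries the 13 mRNAs made up 8.28 to 14.1% of all counts (median 10.4%) and the 22 tRNA genes 0.0863 to 0.142% (median 0.111%). The rRNAs, counted after a step that depletes ribosomal RNA, made up 0.122 to 18.4% (median 0.302%). In the libraries set aside, the mRNAs made up 8.91 to 14.7% (median 11.8%) and the rRNAs 0.0265 to 6.12% (median 0.868%), and the rRNA share was over 1% in 17 of these 39 libraries against 2 of the 66.

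1 library stood apart from the other 65 in these genes. LcRNA_24h replicate 3, with 1313457 counts, held the rRNA share of 18.4%, and without it the highest share was 1.17%. MT-RNR1, the small rRNA, stood at 79249 CPM (counts scaled to 1e+06 per library after TMM scaling) in this library and at 414 to 3603 in the others. MT-RNR2, the large rRNA, stood at 154663 against 817 to 8381 CPM. MT-TV stood at 89.2 against 0.659 to 14.1 CPM, and MT-TL1, the leucine tRNA gene on the far side of MT-RNR2, at 86.2 against 10.8 to 39.2 CPM. In all, 23 of the 37 genes were higher in this library than in any of the other 65, and 0 were lower. Results for the rRNAs are therefore given with and without it.

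**Figure D1:**
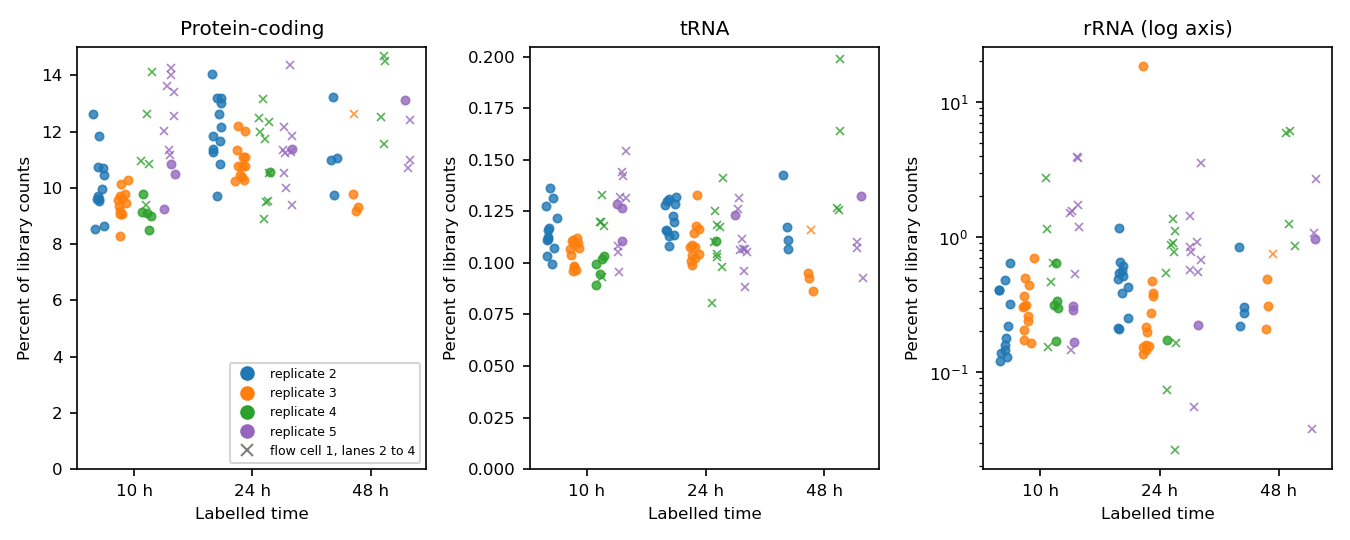
Percent of library counts from the 13 mRNAs (left), the 22 tRNA genes (middle) and the 2 rRNAs (right, log axis) by labelled time, 1 mark per library, coloured by replicate number, with crosses for the lanes set aside. The mRNA median rises from 9.61% at 10 h to 11.3% at 24 h, and 1 library at 24 h stands at 18.4% rRNA.

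Per kilobase of gene, the mRNAs were the most abundant class. The highest median level was that of MT-ND4, a membrane subunit of complex I, at 15341 CPM per kb. The complex IV subunits followed closely, with MT-CO3 at 13673, MT-CO2 at 13624 and MT-CO1 at 12902 CPM per kb, then the ATP synthase subunit MT-ATP6 at 11853. The ranges of these 5 over the libraries overlapped. MT-ND1 (9054), MT-ATP8 (8200), MT-ND4L (7783) and MT-ND2 (7186) came next in CPM per kb, and MT-CYB, the complex III cytochrome b, stood at 4255. MT-ND5 (3818) and MT-ND3 (3806) were alike in median level, and MT-ND6, the 1 mRNA on the - strand, was the lowest mRNA at 2811 CPM per kb. The rRNAs stood at 1241 (MT-RNR2) and 1040 (MT-RNR1) CPM per kb.

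The tRNA genes spanned a wider range, from 26.4 CPM per kb for MT-TF (phenylalanine) and 29.3 for MT-TR to 4512 for MT-TS1. MT-TC (3303) and MT-TY (3260) lay above the lowest mRNA, MT-ND6 (2811), in median CPM per kb and below the other mRNAs. The 8 tRNA genes of the - strand had a median level of 908 CPM per kb and the 14 of the + strand one of 103.6. The counting options given for these data name no strand setting, so fragments from a gene and from the RNA opposite to it cannot be told apart. This touches MT-ND6 and the 8 tRNA genes of the - strand, which lie opposite the long transcript of the + strand. The 7 tRNA genes with no free base on either side stood at a median of 63.2 CPM per kb, and the 15 with at least 1 free base at 344. All 8 genes of the - strand were among these 15. With every tRNA gene shorter than a read, a fragment counted for a tRNA gene can come from a longer RNA that holds it.

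**Figure D2:**
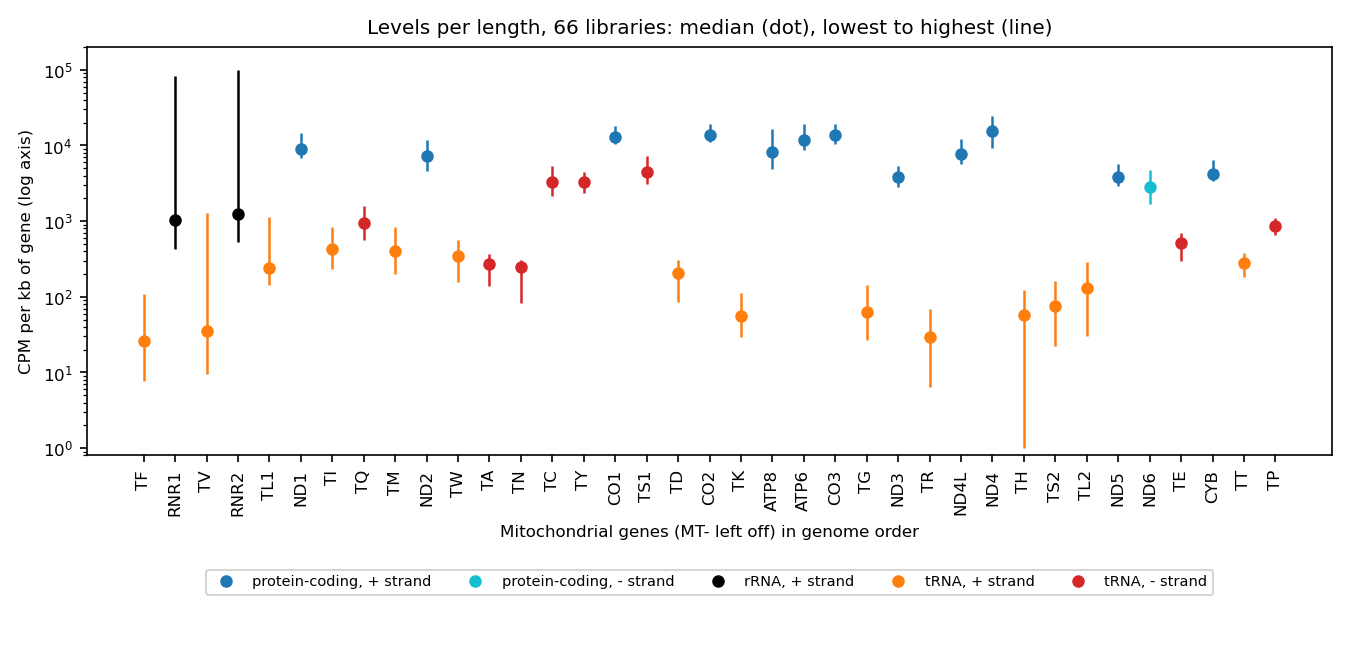
Level per length (CPM per kb, log axis) of the 37 genes in genome order, as the median (dot) and the lowest to highest value (line) over 66 libraries, coloured by class and strand. MT-ND4 is highest at 15341 and MT-TF lowest at 26.4, the line of MT-TH reaches down to a library with 0 (drawn at 1), and the long lines of the rRNAs and MT-TV end in LcRNA_24h replicate 3.

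Across the 66 libraries the levels of MT-RNR1 and MT-RNR2 had a Pearson correlation of 0.996 on the log2(CPM + 1) scale. These libraries include LcRNA_24h replicate 3, far above the others in both rRNAs, and the correlations were not computed without it. The 78 pairs of mRNAs had a median correlation of 0.77 (0.31 to 0.96), the pairs of a mRNA and a tRNA gene one of 0.25 and the pairs of tRNA genes one of 0.22. All points share their library, its scaling and its depth, so these values describe the libraries.

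Nuclear copies of mitochondrial genes took up few counts. By name there were 404 such copies in the table, 178 with a count, and 3 of them held 96.98% of their counts. The largest was MTATP6P1 (chr1:633696-634376), whose 681 bases are 98.5% identical to MT-ATP6, with 11.1 counts for every 100 of MT-ATP6 at the median (9.80 to 15.5). MTND2P28 had 3.10 counts per 100 of MT-ND2 and MTCO1P12 had 0.390 per 100 of MT-CO1. Reads that match a gene and its copy equally well fall under a mapping quality minimum of 10 and are lost to both. The levels of MT-ATP6, MT-ND2 and other genes with close copies are therefore uncertain. Aligned copies of MT-CO1, MT-CO2, MT-CO3, MT-ND1 and MT-ATP8 were 97.6 to 99.1% identical to them, and that of MT-ND4 was 95.8% identical.

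The first question was whether vesicles, vesicle RNA or LPS changed these transcripts. In 22 comparisons of 2 groups, none of the 37 genes passed the test, which was the edgeR quasi-likelihood test over 18775 genes with the replicate number as a block and a Benjamini-Hochberg adjusted p under 0.05. The share of all genes that passed was 3.18% for PmOMV against LPSinc at 10 h and 0.154% at 24 h, 2.75% for LcMV against PBS at 48 h, 0.0373% at 10 h and 0.00533% at 24 h, 1.06% for PmOMV against PBS at 10 h and 0.112% at 24 h, and 0% in the other 15. With such shares at most about 1 of 37 genes would be called if the mitochondrial genes were like the rest. At an unadjusted p under 0.05 there were 29 of the 814 tests of these genes, 0 to 7 per comparison. Of all genes 2.4 to 16.3% had such a p, depending on the comparison. DESeq2 called 0 of the mitochondrial genes as well.

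The median log2 fold change of the 13 mRNAs lay between -0.26 and 0.37 in these comparisons, where the median standard error of a mRNA was 0.13 to 0.19, and changes of such a size did not pass with 2 to 4 libraries a group. The highest median was that of PmRNA against ANC2 at 10 h. There, all 13 mRNAs had positive values, and 7 of the 37 genes had an unadjusted p under 0.05, next to 4.77% of all genes. MT-CYB stood at 5182 and 5799 CPM in the PmRNA libraries and at 3923 and 4365 in those of ANC2, a difference of 0.40 ± 0.15 on the log2 scale (adjusted p = 1). MT-ND1 stood at 12041 and 10117 against 7552 and 7796 CPM, 0.52 ± 0.21 (adjusted p = 1). The groups do not overlap in either gene, with 2 libraries each, and 1 of the PmRNA libraries, replicate 3, had the lowest total of all, 632659 counts. At 10 h the mRNA medians of LcMV, EfMV and PmOMV against PBS were -0.26, -0.18 and -0.23, and these comparisons share their 2 PBS libraries.

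The smallest adjusted p was 0.0794, for MT-TF in LcMV against PBS at 48 h. This tRNA gene stood at 0.632 and 2.01 CPM with LcMV and at 3.09 and 1.59 with PBS, and the groups overlap (log2 -1.61 ± 0.53). The largest differences were those of LcRNA against ANC100 at 24 h. MT-RNR1 stood at 1407, 79249 and 734 CPM in the LcRNA libraries (replicates 2, 3 and 5) and at 1833 and 1231 CPM in those of ANC100, which gave 4.20 ± 1.23 (adjusted p = 0.9999). MT-RNR2 gave 4.10 ± 1.247 and MT-TV 2.40 ± 0.77, both at the same adjusted p. These values rest on replicate 3 of LcRNA. Without it, 0 genes of this genome had an unadjusted p under 0.05 in the comparison, and 0 passed the test with or without it.

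**Figure D3:**
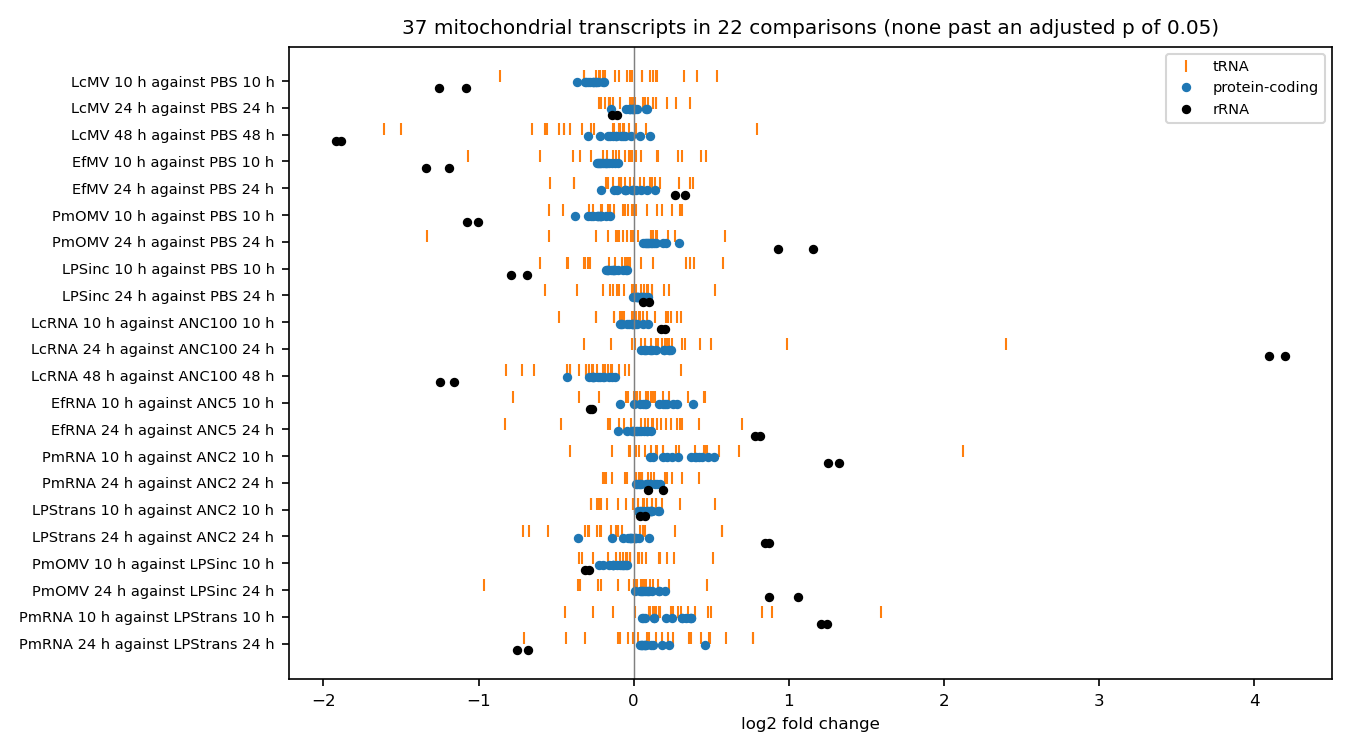
Log2 fold change of each of the 37 genes (1 mark per gene: tRNA bars, mRNA and rRNA dots) in each of the 22 comparisons. The mRNAs lie close together near 0, the rRNAs spread more widely and reach 4.20 for LcRNA against ANC100 at 24 h, and no mark passes an adjusted p of 0.05.

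The way of delivery gave no call either. The siRNA controls against PBS had 0 of 37 genes past the test at 10 and at 24 h, where 0% of all genes passed. At 10 h, 13 of the 37 had an unadjusted p under 0.05, 11 of them mRNAs and 2 tRNA genes, next to 7.34% of all genes, and all 13 mRNAs had negative values, with a median of -0.37. MT-CO3 had the smallest p of these, at -0.26 ± 0.09 (adjusted p = 0.506). The 2 PBS libraries at 10 h differed among themselves, with mRNA shares of 9.70 and 12.6%. Transfected against incubated cultures gave 0 of 37 at 10 h (0.415% of all genes) and at 24 h (0.634%), and so did the difference of this contrast between the times (0.0266%). ANC100 against PBS at 48 h gave 0 of 37 as well (0.282%).

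The next question was how the transcripts changed with time in culture. Between 10 and 24 h, over the 12 treatments sampled at both times, 20 of the 37 genes (54.1%) passed the test, next to 54.9% of all genes, so the number of changed genes was near the background. In direction, 12 genes rose (27.7% of all genes did) and 8 fell (27.2%). Of the 13 mRNAs 9 rose and 0 fell, and all 13 values were positive (median 0.18). Of the 22 tRNA genes 3 rose and 8 fell, with a median of -0.05, and of the 2 rRNAs 0 passed. Over all genes tested the median was 0.0044. The mRNA share of the library was higher at 24 h in 24 of 25 pairs of libraries with the same treatment and replicate number. Nearly all pairs counted here and below were of replicates 2 and 3. Same-numbered libraries deviated together across treatments, so the pairs are not independent of each other. In RNA of whole cultures, fewer cells of a kind and less RNA per cell cannot be told apart.

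Among the mRNAs of complex I, MT-ND4 stood at 12613 to 26707 CPM at 10 h (median 17274, 32 libraries) and at 19592 to 33501 at 24 h (median 23583, 26 libraries). The ranges overlap, and the gene was higher at 24 h in 24 of 25 pairs. It rose by 0.41 ± 0.05 on the log2 scale (adjusted p = 1.54e-08). MT-ND4L, which overlaps it, rose by 0.38 ± 0.04, also in 24 of 25 pairs, and MT-ND3 by 0.11 ± 0.05 (adjusted p = 0.0492). The other complex I genes did not pass, at 0.11 (MT-ND5), 0.07 (MT-ND6), 0.06 (MT-ND1) and 0.03 (MT-ND2). All 3 complex IV subunits rose. MT-CO3 went from a median of 10218 CPM (9146 to 13227) to 12055 CPM (10589 to 15199), with overlapping ranges, and rose by 0.26 ± 0.03, in 24 of 25 pairs. MT-CO2 rose by 0.24 ± 0.04 and MT-CO1, which holds the site where oxygen is reduced, by 0.18 ± 0.03. Both ATP synthase subunits rose, MT-ATP6 by 0.30 ± 0.05 and MT-ATP8 by 0.28 ± 0.08, and MT-CYB of complex III rose by 0.17 ± 0.04.

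The tRNA genes that fell were mostly those of the + strand, 7 of 14 against 1 of 8. MT-TH stood at 2.71 to 8.41 CPM at 10 h (median 5.44) and at 0 to 5.34 at 24 h (median 3.21). It fell by 0.88 ± 0.11 (adjusted p = 5.34e-11) and was lower in 25 of 25 pairs. Its neighbours MT-TS2 and MT-TL2 (leucine), which follow it without a free base, had values of -0.77 ± 0.10 and -0.48 ± 0.07. MT-TR had -0.81 ± 0.13, going from a median of 2.41 to one of 1.61 CPM, and MT-TG (glycine) had -0.55 ± 0.10. These 5 genes lie between MT-CO3 and MT-ND5, in the stretch that also holds MT-ND4. MT-TD (aspartate, -0.22), MT-TM (methionine, -0.21) and MT-TQ (-0.16) fell less. The 3 tRNA genes that rose were on the - strand: MT-TY by 0.20 ± 0.03, MT-TC by 0.13 ± 0.04 and MT-TP (proline) by 0.08 ± 0.03. MT-TC went from a median of 188 CPM (143 to 282) to one of 227 CPM (180 to 294), with overlapping ranges, and was higher in 22 of 25 pairs. A fit with the block within each time takes replicate 2 as its reference, so its contrasts of time give the change in replicate 2. In that fit only MT-TY of the 3 passed (0.16 ± 0.05), MT-TC being at 0.08 (adjusted p = 0.173) and MT-TP at -0.017. The tests of strand or position as such were not made.

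The rRNAs did not pass, at 0.61 ± 0.32 for MT-RNR1 (adjusted p = 0.107) and 0.60 ± 0.32 for MT-RNR2 (adjusted p = 0.116). Without LcRNA_24h replicate 3 they stood at 0.22 and 0.23 (adjusted p = 0.419 and 0.438), and with the replicate block fitted within each time both passed, at 1.19 and 1.22 (adjusted p = 0.0158 and 0.0149). That fit without this library gave 0.87 and 0.92 (adjusted p = 0.0128 and 0.0131), and both passed again. In PBS alone, 0 of 37 genes passed between 10 and 24 h, where 7.15% of all genes did, and the mRNA median was -0.01. There MT-ND4 stood at 26707 and 16828 CPM at 10 h and at 23907 and 22721 CPM at 24 h, and the times overlap, with 2 libraries each. With terms for flow cell and lane all 20 genes stayed past the test. A fit that also held the 39 libraries set aside gave fewer calls, 8 higher and 5 lower with the block. The share of all genes in that fit is not set beside this count.

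**Figure D4:**
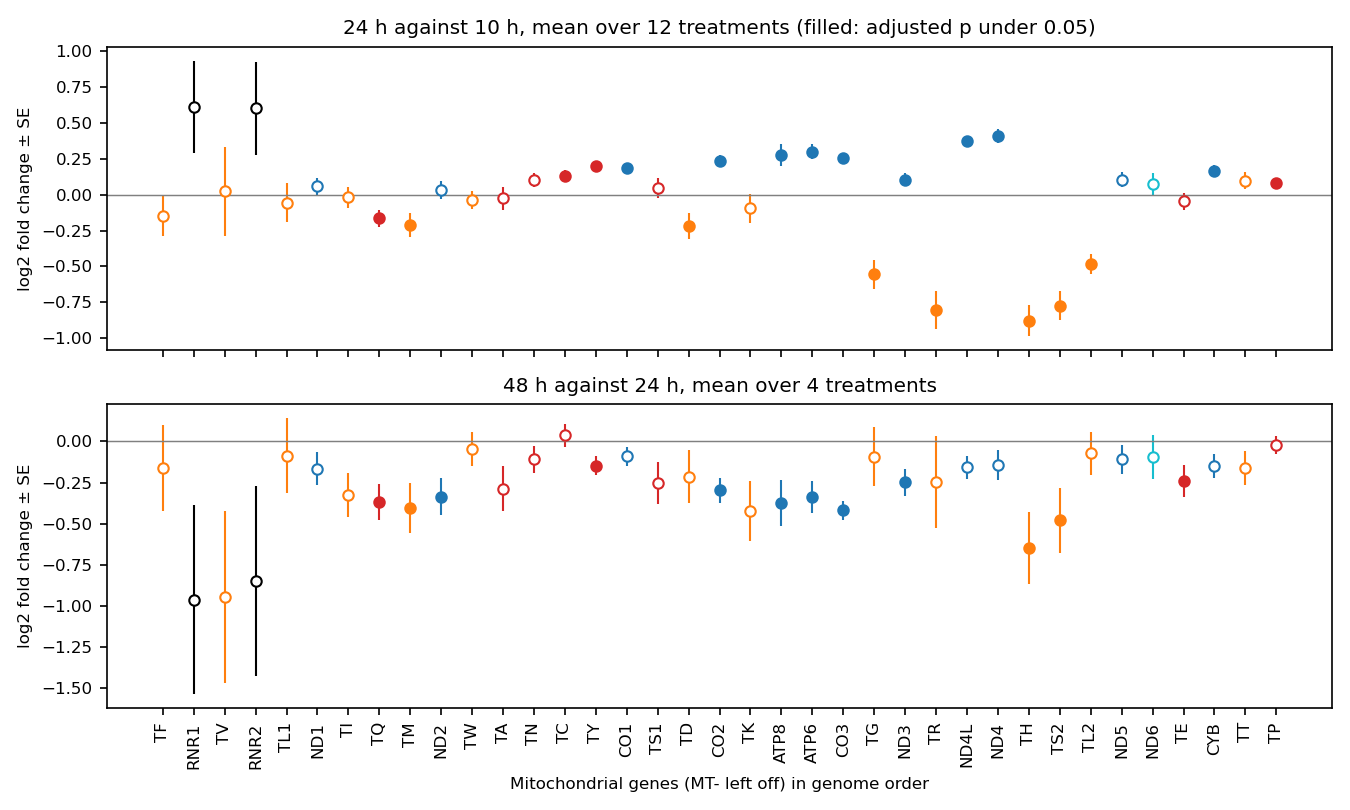
Log2 fold change ± SE of the 37 genes in genome order, 24 h against 10 h (top) and 48 h against 24 h (bottom), filled where the adjusted p is under 0.05 and coloured by class and strand as in the plot of levels per length. At the top the mRNAs lie above 0, up to 0.41 for MT-ND4, and MT-TG, MT-TR, MT-TH, MT-TS2 and MT-TL2 lie lowest, while at the bottom 12 genes are filled, all below 0.

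Between 24 and 48 h, over ANC100, LcMV, LcRNA and PBS, 12 of the 37 genes fell and 0 rose, where 23.2% of all genes fell and 20.3% rose. In total 32.4% of the mitochondrial genes passed, against 43.5% of all genes. Of the 13 mRNAs 6 fell, and all 13 values were negative (median -0.17). MT-CO3 fell by 0.42 ± 0.06 (adjusted p = 9.29e-08). Its 4 pairs of groups were at 14055 and 11675 CPM at 24 h and 10707 and 9457 at 48 h for ANC100, at 12495 and 12220 against 9856 and 8316 for LcMV, at 13717, 15199 and 11351 against 9429 and 8662 for LcRNA, and at 11728 and 12609 against 8751 and 10937 for PBS. The groups do not overlap in any of the 4 treatments, and the 48 h libraries were lower in 7 of 7 pairs. MT-ATP8 fell by 0.38 ± 0.14, MT-ATP6 by 0.34 ± 0.09, MT-ND2 by 0.34 ± 0.11, MT-CO2 by 0.30 ± 0.07 and MT-ND3 by 0.25 ± 0.08. MT-ND4, which had risen most by 24 h, was at -0.14 ± 0.09 and did not pass (median 22654 CPM at 48 h).

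Of the tRNA genes MT-TH (-0.65), MT-TS2 (-0.48), MT-TM (-0.40), MT-TQ (-0.37), MT-TE (glutamate, -0.24) and MT-TY (-0.15) fell from 24 to 48 h. With the block fitted within each time, which gives the change in replicate 2, 0 of the 22 tRNA genes passed (median -0.05), MT-TM being at -0.07 and MT-TS2 at 0.13. From 24 to 48 h the difference between replicates 3 and 2 changed by -1.12 for MT-TM and -1.34 for MT-TS2, so the step differed between the replicate numbers. The rRNAs were at -0.96 ± 0.57 and -0.85 ± 0.58 (adjusted p = 0.18 and 0.247) and, without LcRNA_24h replicate 3, at 0.17 and 0.23. With the block within each time, again in replicate 2, they were at -1.73 and -1.71 (adjusted p = 0.0436 and 0.0509), so that MT-RNR1 passed. That fit without this library gave -0.47 and -0.53 (adjusted p = 0.461 and 0.439). Counts of this contrast depended on the libraries. They were 7 without LcRNA_24h replicate 3, 0 with the 39 libraries set aside included, 6 without the replicate block, 7 with the block within each time (6 mRNAs and MT-RNR1), 4 with that block and without LcRNA_24h replicate 3, and 1, MT-CO3, with terms for flow cell and lane. These counts are given without the share of all genes in each fit, so whether the drops are particular to mitochondrial genes was not tested. At 48 h all 3 libraries of replicate 3 were on flow cell 2 lane 4, which held no library of replicate 3 from the earlier times, so within replicate 3 time and lane cannot be told apart. In all, 6 genes rose to 24 h and fell to 48 h (MT-CO2, MT-CO3, MT-ATP6, MT-ATP8, MT-ND3 and MT-TY), and 4 tRNA genes fell at both steps (MT-TQ, MT-TM, MT-TH and MT-TS2). The share of all genes with either pattern was not counted, so the patterns are not shown to be particular to these genes. In the fit with the block within each time the second step is that of replicate 2. There none of the 4 tRNA genes that fell at both steps, nor MT-TY, passed at the second step.

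The replicate number also went with differences in the tRNA genes. Between replicates 3 and 2, 23 of the 37 genes differed (62.2%, and 62.2% of all genes), 10 higher and 13 lower in replicate 3 (31.1% of all genes each way). No mRNA was higher. MT-ND4 (-0.26 ± 0.05), MT-ND4L (-0.22), MT-CO1 (-0.20), MT-ND1 (-0.19), MT-ND5 (-0.15) and MT-CO2 (-0.13) were lower in replicate 3. Of the tRNA genes of the + strand 9 of 14 were higher and 2 lower, and of the - strand 1 of 8 was higher and 5 lower.

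MT-TV was higher by 1.06 ± 0.30 in replicate 3 and MT-TF by 0.86 ± 0.14. LcRNA_24h replicate 3 is itself a library of replicate 3, and without it MT-TV was higher by 0.62 ± 0.20 (adjusted p = 0.00765) and MT-TF by 0.82 ± 0.14. Fitted within each time, MT-TV passed at 24 h (1.38, and 0.43 with adjusted p = 0.25 without this library) but not at 10 h (1.01, adjusted p = 0.0677) or 48 h (-0.20). MT-TF stood at 1.37 to 7.75 CPM in replicate 3 (median 2.42, 27 libraries) and at 0.553 to 3.27 in replicate 2 (median 1.28, 28 libraries), and the ranges overlap. MT-TC had a median of 187 CPM in replicate 3 (143 to 294) and of 249 in replicate 2 (213 to 350), with ranges that overlap, and was lower by 0.45 ± 0.04 in replicate 3 (adjusted p = 2.13e-12). The 7 tRNA genes MT-TQ, MT-TM, MT-TG, MT-TR, MT-TH, MT-TS2 and MT-TL2 were lower at 24 h and higher in replicate 3. How many of all genes shared this pattern was not counted. MT-RNR1, MT-RNR2, MT-TL1, MT-TK (lysine) and MT-ND6 passed none of the 3 tests of time and replicate.

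Fitted within each time, the replicate difference had 9 genes higher and 12 lower at 10 h, where 50% of all genes passed (24.9% higher and 25.1% lower). It had 14 higher and 8 lower at 24 h, with 52.9% of all genes (27 and 25.9%), and 0 higher and 18 lower at 48 h, with 36.5% of all genes (18.1 and 18.3%). Without LcRNA_24h replicate 3 there were 12 higher and 12 lower at 24 h, a count without the share of all genes beside it. The rRNAs were among the latter at -0.97 and -1.04 (adjusted p = 0.0104 and 0.0103), where they were at -0.66 and -0.73 with that library (adjusted p = 0.219 and 0.18). Between 24 and 10 h the difference itself changed in 6 genes, all tRNA genes with a higher value at 24 h (14.5% of all genes changed, 9.35% toward higher and 5.19% toward lower), and between 48 and 24 h in 10 genes, all toward lower (6.52% of all genes, 3.47% toward lower). MT-TD shows both. In replicates 2 and 3 it stood at medians of 16.9 and 14.3 CPM at 10 h, 11.99 and 14.8 at 24 h, and 14.3 and 6.18 at 48 h, where its 3 libraries of replicate 3 lay at 5.73 to 6.67 and the 4 of replicate 2 at 12.6 to 15.4. Its difference was -0.27 ± 0.08, 0.25 ± 0.08 and -1.22 ± 0.17 at the 3 times. From 10 to 24 h the libraries of replicate 3 on flow cell 1 lane 1 went from 1 to 9, and those of replicate 2 from 4 to 3. The part of this shift, and of the lane that all of replicate 3 shared at 48 h, was not tested.

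**Figure D5:**
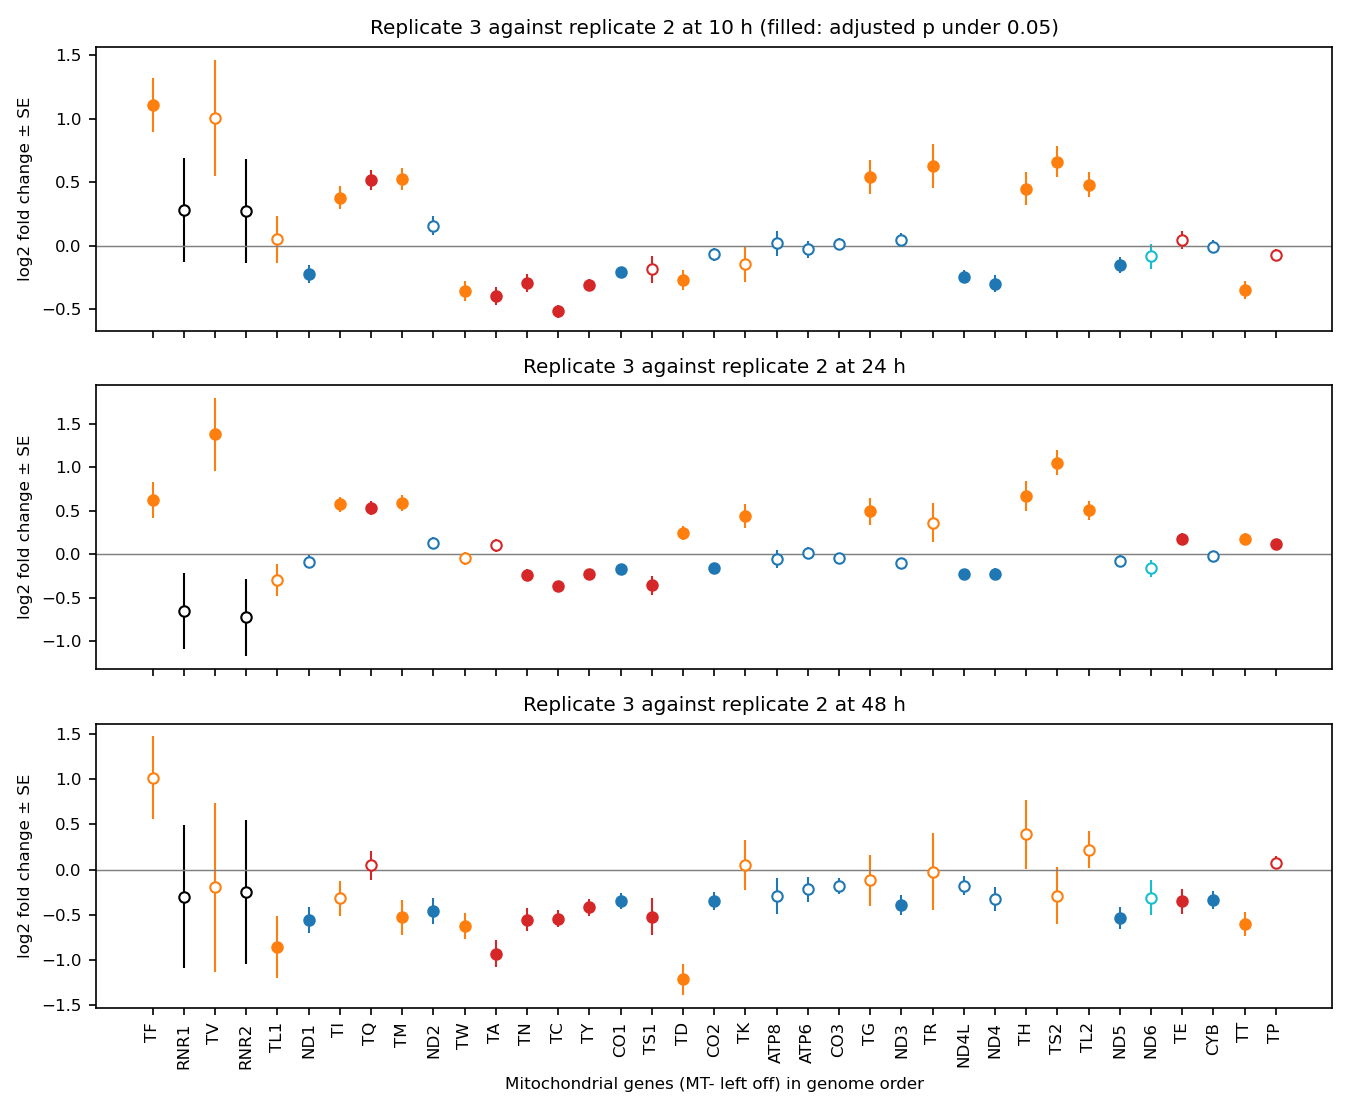
Log2 fold change ± SE of replicate 3 against replicate 2 at 10, 24 and 48 h for the 37 genes in genome order, filled where the adjusted p is under 0.05. Of the 14 tRNA genes of the + strand 10 lie above 0 at 10 h and 12 at 24 h, and at 48 h all 18 filled genes lie below 0, MT-TD lowest at -1.22.

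Relative to the summed counts of the mitochondrial genome, in place of the usual scaling, the comparisons describe the make-up of this RNA. On that scale the median of all genes was shifted by -0.23 for 24 against 10 h, by 0.25 for 48 against 24 h and by 0.11 for replicate 3 against 2. Between 10 and 24 h 0 of the 37 genes rose and 18 fell (5.39 and 49.6% of all genes), 16 of them tRNA genes, with MT-ND1 and MT-ND2. All 22 tRNA values were negative there, and the mRNA median was -0.06. Between 24 and 48 h 0 genes rose and 0 fell (27.3 and 1.61% of all genes), so none of the 12 genes that fell on the usual scale passed on this one. Between the replicates 11 genes were higher and 3 lower (33.7 and 11.7%), 1 of the 11 a mRNA. The total includes the rRNAs, which had 241380 counts in LcRNA_24h replicate 3 next to 160482 of the mRNAs, and was not fitted without that library. Relative to the summed mRNAs, MT-CO3 fell from 24 to 48 h (-0.21, adjusted p = 0.042) and MT-TC rose (0.23, adjusted p = 0.0252), next to 4.69 and 32% of all genes. Between 10 and 24 h 2 genes rose and 22 fell on it (7.29 and 54.1%).

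Among the nuclear genes that share the complexes with these mRNAs, more fell than rose between 10 and 24 h. Of 78 nuclear subunits of complexes I to V 7 rose and 30 fell, whereas of the 13 mitochondrial ones 9 rose and 0 fell. ATP5MC2, of the membrane ring of ATP synthase, rose by 0.28 ± 0.03, while NDUFAB1, the acyl carrier protein of complex I (-0.34), cytochrome c1 CYC1 (-0.32) and UQCR11 of complex III (-0.28) fell. By complex, the counts of nuclear subunits that rose and fell were 3 and 12 of 37 (I), 0 and 2 of 4 (II, which has no mitochondrial subunit), 1 and 5 of 9 (III), 2 and 1 of 11 (IV) and 1 and 10 of 17 (V). Between 24 and 48 h more genes fell than rose in both sets. Of the 78, 69 fell and 1, ATP5MC2, rose (median -0.34), with NDUFS6 at -0.75 ± 0.06, CYC1 at -0.65 ± 0.05 and UQCRQ at -0.59 ± 0.06. Between replicates 27 of the 78 were higher and 21 lower in replicate 3 (31.1% of all genes each way), among them NDUFV3 (0.42) and ATP5ME (-0.66). Differences between the nuclear and mitochondrial sets were not tested.

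Among the genes that act on the mitochondrial genome and its RNA, more fell than rose at each time step. Of 5 genes of mitochondrial transcription 3 fell between 10 and 24 h and 0 rose, among them the RNA polymerase POLRMT (-0.13 ± 0.03) and the packaging factor TFAM (-0.15 ± 0.02), and the same 3 genes, TFB2M being the other, fell again from 24 to 48 h. Of 30 genes of mitochondrial RNA processing and decay 17 fell and 0 rose between 10 and 24 h, led by FASTKD1 (-0.54 ± 0.04) and the polynucleotide phosphorylase PNPT1 (-0.52 ± 0.03), and 22 fell from 24 to 48 h, led by HSD17B10, a subunit of the RNase P that cuts at the 5′ end of tRNAs (-0.72 ± 0.06). In replicate 3, 8 of the 30 were higher and 11 lower, again next to 31.1% of all genes each way. ELAC2, the RNase Z that cuts at the 3′ end of tRNAs, was higher by 0.78 ± 0.03, TRMT10C, another subunit of RNase P, by 0.37 ± 0.04.

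Of 77 mitochondrial ribosomal proteins 2 rose and 53 fell between 10 and 24 h (MRPL12 at -0.52 ± 0.04), and 5 rose and 56 fell from 24 to 48 h. Of 8 listed genes, chaperones and proteases of the organelle together with the transcription factor ATF5, all fell by 24 h (HSPA9 at -0.44 ± 0.02). By 48 h 7 of them fell again. Of 14 genes of mitochondrial DNA maintenance 4 rose and 8 fell by 24 h, the ATPase ATAD3A (-0.67 ± 0.04) and the helicase TWNK (-0.47 ± 0.04) most, and 2 rose and 5 fell by 48 h. Of 6 regulators of biogenesis 4 fell by 24 h and 3 by 48 h, PPRC1 at each step (-0.49 and -0.50). The shares of all genes that rose and fell were those given above, 27.7 and 27.2% by 24 h and 20.3 and 23.2% by 48 h. Among the nuclear copies, MTATP6P1 followed MT-ATP6, with 0.31 ± 0.06 by 24 h and -0.31 ± 0.11 by 48 h.

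Markers of other cell types were checked in the 66 libraries, here as CPM of the total counts. All 7 colon epithelial markers were over 1 CPM at the median, and they moved with time and replicate. Between 10 and 24 h 2 of the 7 rose and 4 fell, among them KRT20 (-0.82), KRT18 (-0.49) and KRT8 (-0.28), all keratins of the epithelial skeleton. Between 24 and 48 h 3 rose, KRT20 at 1.06, CDH1 at 0.33 and CDX2 at 0.17, and 4 fell, with KRT18 at -0.96 and KRT8 at -0.93. KRT20 was low, at medians of 3.63, 1.81 and 1.26 CPM at 10, 24 and 48 h, so its fold changes rest on few counts. In replicate 3, 3 were higher, with KRT20 at 2.35, and 2 lower. PTPRC of leukocytes, COL1A2 and DCN of fibroblasts and CDH5 of the endothelium were at a median of 0. The 5 leukocyte markers summed to 8.67 to 16.0 CPM in replicate 2 and to 127 to 226 in replicate 3, through LYZ, a lysozyme that gut epithelium can also make (log2 4.14 ± 0.04). Of the 3 leukocyte markers tested the other 2, CD68 (-0.49 ± 0.14, adjusted p = 0.00196) and CD3E (-0.48 ± 0.13, adjusted p = 0.00105), were lower in replicate 3. The 5 fibroblast markers summed to 23.7 to 35.8 CPM at 10 h, 39.6 to 64.2 at 24 h and 63.6 to 77.0 at 48 h, mostly through COL1A1. The 3 endothelial markers summed to 2.92 to 8.50 CPM at 24 h and 6.99 to 12.2 at 48 h, mostly PECAM1. The nuclear RNAs MALAT1 and NEAT1 rose by 0.61 ± 0.04 and 0.82 ± 0.06 from 24 to 48 h, where the 12 mitochondrial genes fell. From 10 to 24 h MALAT1 was at -0.18 and NEAT1 at 0.16, and in replicate 3 they were at -0.07 and -0.30, all past the test. The part of these differences in the results by time and replicate was not tested.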

How the data were processed

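Total RNA depleted of rRNA was sequenced from both ends. Per the labels, the authors aligned reads to GRCh38 with STAR and counted them with featureCounts, with a mapping quality minimum of 10 named in their methods. The deposited values are raw counts per gene, not normalised, in 1 table (66 libraries used, 39 set aside). The counting options listed in their methods include none for fragments that overlap several genes, and how these were treated is not stated there. Symbols matched 62666 of 63241 IDs.

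The 66 libraries outside lanes 2, 3 and 4 of flow cell 1 entered 1 fit in edgeR 4.0.16 (R 4.3.3) with a coefficient per group and the replicate number as a block. Genes were kept by filterByExpr (18775 genes), libraries scaled by TMM, and the robust quasi-likelihood F test was two-sided with Benjamini-Hochberg adjustment over all genes. Values after ± are standard errors of log2 fold changes, the absolute change over the square root of F. CPM are counts scaled to 1e+06 by TMM. Contrasts of time average over treatments, and a further fit had the block within each time. Replicate 2 is the reference at each time in that further fit, so its contrasts of time are those of replicate 2 and not an average over replicates. Same-numbered libraries deviated together from their group means in all 46 pairs of the 22 comparisons (correlation 0.449 to 0.878 over 1500 genes, and 2 pairs give 1 value where both groups have 2 libraries). The pairing rests on this check, since the labels give only a number. No 2 libraries had identical counts (0 pairs).

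The members, lists and tests were chosen with earlier results of these data known. Mitochondrial genes were named where they passed a test, were highest or lowest of their class, or overlapped another, and of other lists up to 3 genes each way. MT-TL1, MT-TK and the library LcRNA_24h replicate 3 were singled out, and the fits without this library added, after their values were seen. Alternatives were DESeq2 1.42.0, other scalings, filters, blocks and libraries. The level of 1 marker gene is not reported here.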

Additional observations from a re-analysis of the deposited data

Results flagged for a closer look

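The shares of mitochondrial classes were searched for libraries far from the rest of their group, with the 39 libraries set aside included, in 69 groups and shares, of which chance flags about 1 in 20. At 10 h the rRNA share stood apart in LPSinc replicate 5 (3.82% against 0.178 to 0.466%), LPStrans replicate 5 (3.90% against 0.171 to 0.407%), LcMV replicate 5 (1.51% against 0.139 to 0.311%), PmOMV replicate 5 (1.73% against 0.122 to 0.334%), PmRNA replicate 5 (1.56% against 0.641 to 0.696%) and PBS replicate 4 (1.15% against 0.440 to 0.536%). The mRNA share also stood apart in LcMV_10h replicate 5, at 13.4% against 9.07 to 9.71%. At 48 h the rRNA share of LcRNA replicate 4 was 5.89% against 0.274 to 1.07%. All 8 values came from 7 libraries of the lanes set aside. Groups of 2 or 3 libraries were not searched, so LcRNA_24h replicate 3, in a group of 3, could not be flagged.

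The difference between replicates 3 and 2 itself differed between times in an interaction test. From 10 to 24 h it rose for MT-TK (0.58), MT-TT (threonine, 0.53), MT-TD (0.52), MT-TA (alanine, 0.49), MT-TW (tryptophan, 0.31) and MT-TP (0.18). From 24 to 48 h it fell for MT-TD (-1.46), MT-TS2 (-1.34), MT-TM (-1.12), MT-TA (-1.03), MT-TI (-0.89), MT-TT (-0.78), MT-ND2 (-0.59), MT-TW (-0.58), MT-TE (-0.53) and MT-ND5 (-0.47). At 48 h all 3 libraries of replicate 3 came from 1 lane, so within replicate 3 time and lane cannot be told apart. From 10 to 24 h the libraries of replicate 3 on flow cell 1 lane 1 went from 1 to 9, and those of replicate 2 from 4 to 3. The interaction was not fitted with terms for lane.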

How the results depend on the processing

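Of the 22 comparisons of 2 groups, 1 changed its count of 0 mitochondrial genes when a library was left out: LcMV against PBS at 48 h had 0 to 1, with MT-TI lower without LcMV_48h replicate 2. PBS at 24 against 10 h had 1 with the block within each time, where the contrast is that of replicate 2. For 24 against 10 h, the fit with the 39 libraries set aside included gave 5 genes lower with the replicate block, and 6 higher and 4 lower without it. Leaving out each library gave 10 to 15 higher and 5 to 8 lower (5 without LPStrans_24h replicate 2). For 48 against 24 h, the 12 genes lower became 0 with those libraries included, with or without the block, 6 with no replicate block in the 66 libraries, 7 with the block within each time and 1 with flow cell and lane. Leaving out a library gave 5 to 15, with 7 without ANC100_24h replicate 2, LcMV_24h replicate 3, LcRNA_24h replicate 3 or LcRNA_48h replicate 3, 6 without LcMV_48h replicate 3 or PBS_48h replicate 2, and 5 without ANC100_48h replicate 3. Replicate 3 against 2 kept 10 higher and 12 to 14 lower. With the block within each time, which gives the change in replicate 2, MT-TP (24 against 10 h) was at -0.017 and MT-TS2 (48 against 24 h) at 0.13. Without LcRNA_24h replicate 3, MT-RNR1 and MT-RNR2 (48 against 24 h) were at 0.17 and 0.23. Relative to the summed mRNAs in place of all mitochondrial counts, 2 genes were higher for 24 against 10 h, 1 higher and 1 lower for 48 against 24 h, and 5 lower in replicate 3. DESeq2, other scalings, no filter and the fit without the robust option kept every other count within 1.5 times. The cause of these changes was not tested. The counts stand without the share of all genes in each fit, so whether they are particular to mitochondrial genes was not tested either. With no replicate block 17 of the 20 genes called between 10 and 24 h stayed past the test. Groups of 2 libraries and 632659 counts at the lowest limit all of these, and leaving out libraries was not run for the pooled siRNA and delivery contrasts.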
